A study of Mus musculus with 13 samples.

Results

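The subject is 10 genes of corticosteroid signalling, followed through the cell classes of the mouse medial amygdala: the 2 corticosteroid receptors, Nr3c1 and Nr3c2, and 8 transcripts known to respond to them, Fkbp5, Tsc22d3, Zbtb16, Klf9, Klf15, Sgk1, Hif3a and Sult1a1. They were chosen by symbol for their known roles, with earlier results of these data known, and all 10 were present among the 16961 genes of the deposited table. The cells came from the medial amygdala of C57BL/6J mice with no listed mutation or transgene, 6 male and 7 female libraries, dissociated by a protocol that limits transcription during cell isolation (Act-seq) and captured as single cells in droplets (Drop-seq). All mice were kept on a reversed light cycle, lived alone for 1 day or longer beforehand and were given nothing else. Male 3, male 5 and female 3 are labelled 8 weeks old and the other 10 libraries 9 weeks. The labels give sex as the only group. They name libraries and not animals, and what the p-values below measure is library-to-library spread, part of which may be technical. 2 questions are addressed: in which of the 8 cell classes that the authors assigned each gene was found, and whether the responsive genes rise and fall together from library to library within a class, sex being the one contrast between libraries.

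Corticosterone, the main glucocorticoid of mice, reaches the brain from the adrenal gland with a daily rhythm and in pulses under stress. It binds 2 nuclear receptors: the mineralocorticoid receptor (Nr3c2), which has the higher affinity, and the glucocorticoid receptor (Nr3c1), which fills when the hormone is high. The bound receptor enters the nucleus and, at many genes, binds a pair of short arms that face each other across a spacer and raises transcription, among others of Fkbp5, whose protein lowers the affinity of the receptor for hormone and so closes a negative feedback loop. A blood glucocorticoid level was not among the data.

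Of 43388 deposited cells, the 24808 with at least 500 detected genes were retained, and 281 likely doublets (1.13%) were removed, which left 24527 cells (11542 male and 12985 female). The glia comprised 6445 astrocytes, 3727 microglia and, of the oligodendrocyte lineage, 4163 precursors, 463 newly formed and 3887 mature cells. Vessels contributed 1463 endothelial and 764 mural cells, and 3615 cells were neurons. Libraries held 1149 to 2908 cells and 3718151 to 7874074 transcript counts (unique molecular identifiers, UMIs), and the smallest share of a class in a library was 12 cells. In the kept set 19 cell barcodes occurred in more than 1 library. Levels are given as UMIs of a gene per 1000000 UMIs of the class in a library (CPM), as mean ± SD over the 13 libraries. Each of the 72 class markers in the table had its highest mean in its own class. Markers of another class had a median level of 0.0296% to 20.1% of that in their own class, the largest being precursor markers in newly formed oligodendrocytes. The mural class also held all 6 fibroblast markers of the meninges, summing to 2114 to 6631 CPM per library, beside 28181 to 37160 CPM of mural markers. All 4 blood markers were found in the endothelial class, at 0 to 63606 CPM per library. Levels rank the classes for 1 gene and do not rank the genes. They carry no p, because the authors formed the classes from these same counts. In summed counts, fewer expressing cells and less RNA per cell cannot be told apart.

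The glucocorticoid receptor Nr3c1 was found in every class, and its level differed 3.10-fold between the highest and the lowest. It stood at 375 ± 69.4 CPM in endothelial cells, 353 ± 40.0 in oligodendrocytes, 300.2 ± 23.3 in precursors, 285 ± 29.0 in microglia and 282 ± 20.5 in astrocytes. Mural cells followed with 216 ± 50.9 CPM, then neurons with 134 ± 26.0 and newly formed oligodendrocytes with 121 ± 32.1. The upper places did not separate: endothelial cells exceeded oligodendrocytes in 8 of the 13 libraries, and microglia exceeded astrocytes in 7. Oligodendrocytes exceeded precursors in 12, and astrocytes exceeded mural cells in 12. Along the oligodendrocyte lineage the level was therefore lowest in the newly formed cells, below both precursors and mature oligodendrocytes.

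The mineralocorticoid receptor Nr3c2 had another order, led by astrocytes with 35.9 ± 6.49 CPM. Mural cells (26.4 ± 19.5 CPM), endothelial cells (24.3 ± 12.0) and precursors (20.9 ± 6.27) came next, and neurons (12.0 ± 4.17), oligodendrocytes (9.09 ± 3.31), microglia (7.82 ± 2.70) and newly formed oligodendrocytes (6.27 ± 7.84) were lower. Astrocytes exceeded mural cells in 9 libraries, while mural cells exceeded endothelial cells in only 6 of 13, so those neighbours are not ordered. The mural, endothelial and newly formed oligodendrocyte values rest on 47, 77 and 15 UMIs. For every 100 Nr3c1 UMIs there were 12.9 ± 10.1 Nr3c2 UMIs in mural cells, 12.7 ± 2.26 in astrocytes and 9.09 ± 3.32 in neurons, against 2.77 ± 0.96 in microglia and 2.60 ± 1.03 in oligodendrocytes. This ratio is not corrected for transcript length and compares classes only. Nr3c2 lies on chromosome 8 (76899442 to 77245012, plus strand, GRCm38).

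**Figure D1:**
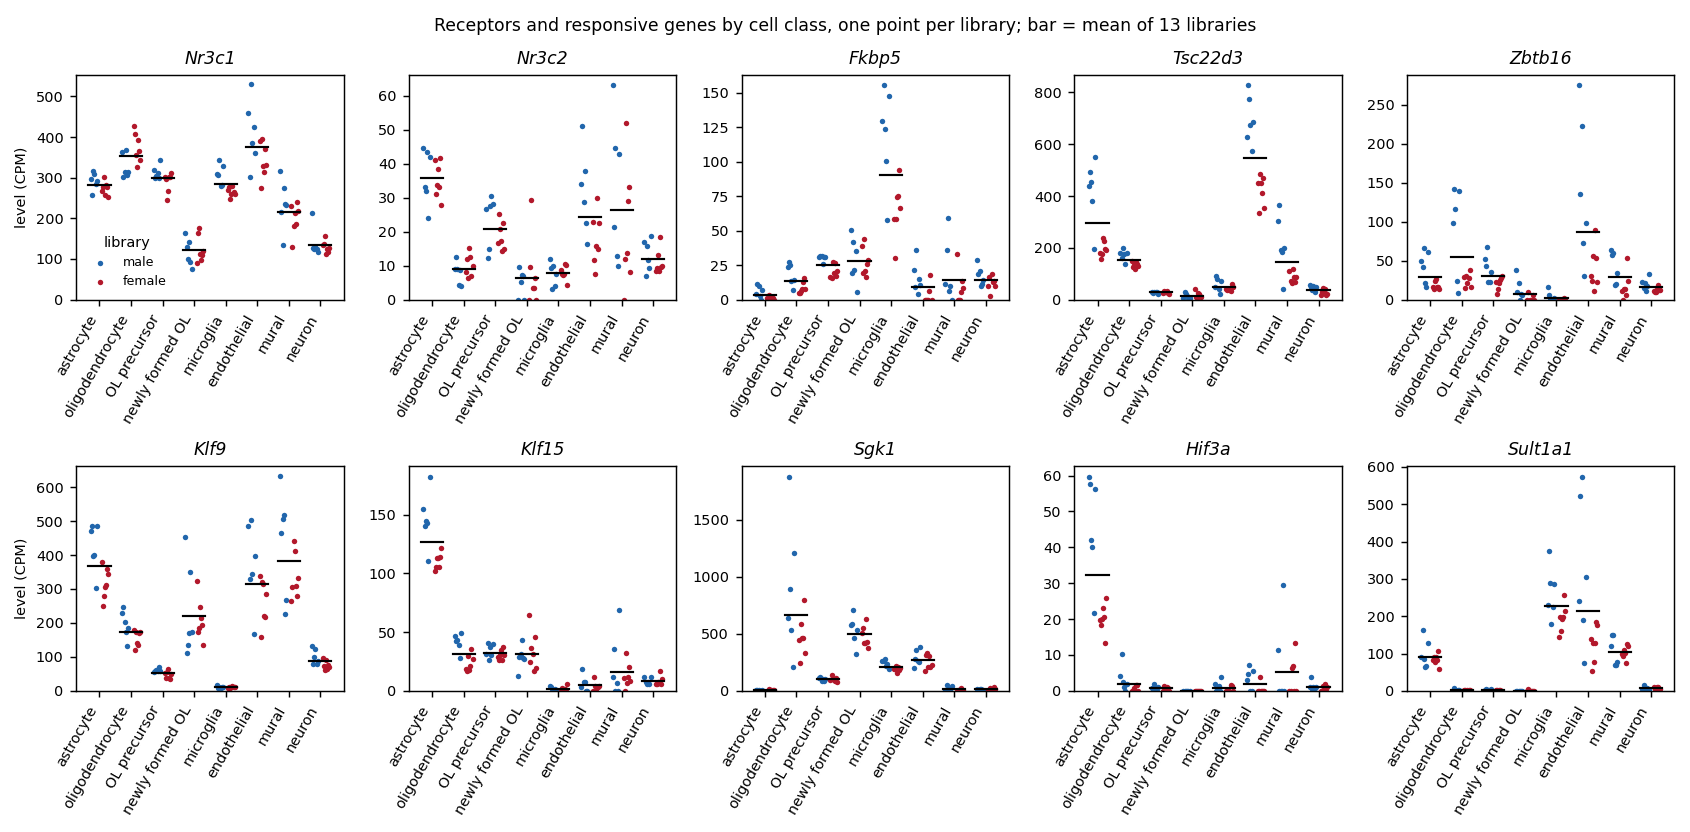
CPM of the 10 genes in the 8 classes, 1 point per library (male and female coloured apart) with the mean as a line, on axes scaled for each gene. Nr3c1 is spread over all classes, while Fkbp5 peaks in microglia (90.1 ± 38.9 CPM), Klf15 in astrocytes (127 ± 24.1) and Sgk1 in oligodendrocytes (668 ± 454).

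Each responsive gene had its own order of classes, and none had that of Nr3c1. Fkbp5 encodes a co-chaperone of the receptor complex (chromosome 17, 28399094 to 28517527, minus strand). It was highest in microglia, at 90.1 ± 38.9 CPM, above the next class in 13 of 13 libraries. Newly formed oligodendrocytes had 28.3 ± 12.9 CPM, precursors 24.9 ± 6.32, neurons 14.4 ± 6.34 and oligodendrocytes 13.1 ± 7.95. In astrocytes Fkbp5 was nearly absent, at 3.31 ± 3.74 CPM from 42 UMIs, although their Nr3c1 level was close to that of microglia.

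Tsc22d3 encodes GILZ, a leucine zipper protein that dampens inflammatory transcription (chromosome X, 140539528 to 140600659, minus strand). It was highest in endothelial cells, at 548 ± 159 CPM, and second in astrocytes, at 297 ± 142, each above the next class in 13 of 13 libraries. Oligodendrocytes (152 ± 24.8 CPM) and mural cells (145 ± 99.4) were alike, the first being higher in 9 libraries. Microglia (50.2 ± 20.2), neurons (36.6 ± 12.99), precursors (27.5 ± 4.36) and newly formed oligodendrocytes (15.3 ± 10.9) followed. Zbtb16, a zinc finger repressor (chromosome 9, 48654297 to 48836222, minus strand), had 86.2 ± 80.9 CPM in endothelial cells and 54.2 ± 50.2 in oligodendrocytes. Its SD approached its mean in both. Precursors, astrocytes and mural cells lay between 28.8 and 30.1 CPM, and microglia had 2.09 ± 4.48 CPM from 15 UMIs.

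The Krüppel-like factors Klf9 and Klf15 are transcription factors that carry the hormone signal on to other genes. Klf9 (chromosome 19, 23141226 to 23168134, plus strand) had similar levels in mural cells (381 ± 124 CPM), astrocytes (367 ± 78.6) and endothelial cells (314 ± 107), and was lowest in microglia (11.1 ± 2.88). Klf15 (chromosome 6, 90462576 to 90475238, plus strand) was concentrated in astrocytes: 127 ± 24.1 CPM, which is 3.92-fold the next class and higher in all 13 libraries. Precursors, oligodendrocytes and newly formed oligodendrocytes followed within 31.6 to 32.3 CPM, and microglia had 1.59 ± 1.90 CPM from 12 UMIs. Microglia thus had the highest Fkbp5 and the lowest Klf9 of the 8 classes. Their means of Klf15 and Zbtb16 were also the lowest, but near the floor. Endothelial Klf15 (4.74 CPM from 14 UMIs) exceeded that of microglia in only 7 of 13 libraries. Zbtb16 of newly formed oligodendrocytes (7.44 CPM from 17 UMIs) also did so in 7, so those neighbours are not ordered.

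Sgk1, a kinase that regulates ion channels and transporters (chromosome 10, 21882184 to 21999903, plus strand), was highest in the later oligodendrocyte lineage. It had 668 ± 454 CPM in oligodendrocytes and 502 ± 110 in newly formed oligodendrocytes, and the first exceeded the second in 8 of 13 libraries. Endothelial cells (269.8 ± 65.2 CPM) and microglia (213 ± 36.05) came next, both above oligodendrocyte precursors (102 ± 16.7). Neurons (14.8 ± 6.28), mural cells (13.7 ± 16.4) and astrocytes (5.03 ± 3.47) were low. Its gene was also the one member whose promoter windows held both receptor-binding arms in the canonical arrangement. The window below shows it, 250 bases upstream of a Sgk1 start site (chr10:21993640-21993889, plus strand, start site 21993890, RefSeq, GRCm38.p6). Capitals mark the arms AGAACA and TGTTCT, searched on both strands.
Sgk1: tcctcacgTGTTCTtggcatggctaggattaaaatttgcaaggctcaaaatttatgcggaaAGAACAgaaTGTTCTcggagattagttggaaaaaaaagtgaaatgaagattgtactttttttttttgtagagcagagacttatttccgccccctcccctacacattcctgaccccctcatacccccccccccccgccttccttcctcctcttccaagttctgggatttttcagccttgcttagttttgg
AGAACA, any 3 bases and TGTTCT begin 189 bases before that start site, and another arm begins 242 bases before it. The window holds 0 annotated exon bases of Sgk1. The paired arrangement was found in 3 of 32536 upstream windows of this length in the RefSeq table (0.00922%), and a single arm in 16.0%. It was absent from the other windows of the 8 members with an entry (15 windows in all, several per gene for some). A match is a string of letters and does not show binding, and no match says nothing of sites elsewhere.

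Hif3a, a hypoxia-inducible factor subunit that can restrain the other subunits, was an astrocyte transcript here (chromosome 7, 17031507 to 17062427, minus strand). It had 32.2 ± 16.7 CPM in astrocytes, 5.19 ± 8.71 in mural cells from 9 UMIs, and at most 1.85 elsewhere. No Hif3a UMI was seen among 2528104 UMIs of newly formed oligodendrocytes, which allows up to 1.19 CPM. Sult1a1, a sulfotransferase of phenols and catecholamines (chromosome 7, 126672865 to 126676432, minus strand), had 227 ± 62.1 CPM in microglia and 215 ± 163 in endothelial cells, the first being higher in 8 libraries. Mural cells (105 ± 27.8) and astrocytes (91.2 ± 28.2) were next, and the other classes stayed at or below 6.70 CPM.

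For each member, the 3 genes with the most similar pattern were found by Pearson's r of log2(CPM + 1) over the 8 class means, among 8719 genes. With 8 points from shared libraries, r is only a description. For Nr3c1 they were Taf7 (r = 0.895), Pmp22 and St6gal1, and for Nr3c2 Dbp (0.947), Zranb1 and Emp2. Fkbp5 was nearest to Sdf2l1 (0.952), Nars and Smap2, and Tsc22d3 to March2 (0.935), Klf7 and Cd59a. Zbtb16 was nearest to Tob1 (0.976), Tfdp2 and Pard3, Klf9 to Uqcrq (0.931), Gm10250 and Atp5h, and Klf15 to Aldh6a1 (0.962), Arhgef19 and 4930430F08Rik. Sgk1 was nearest to Rala (0.949), Tmf1 and Tbc1d14, Hif3a to Retsat (0.940), Phkg1 and Malat1, and Sult1a1 to Trim12a (0.987), Trim12c and Sparc. Trim12a and Trim12c are close paralogs, and their counts may not be separable.

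Between the sexes, 6 of 37 tests of responsive genes passed, all higher in males and in 3 of the 8 classes. Of the 80 combinations of gene and class, 49 had enough counts for the test, 12 of receptors and 37 of responsive genes. Of these 37 differences, male minus female, 35 were positive, 25 had an unadjusted p under 0.05 (as did 3.89% to 11.1% of all genes, depending on the class), and 6 passed an adjusted p of 0.05 over all genes of the class (edgeR's quasi-likelihood test, Benjamini-Hochberg). The 6 were Hif3a, Tsc22d3, Klf9 and Klf15 in astrocytes, Klf15 in oligodendrocytes and Tsc22d3 in endothelial cells. Among all genes, 1.16% were called in astrocytes, 0.261% in oligodendrocytes and 1.28% in endothelial cells, where 4 of 6, 1 of 6 and 1 of 5 tested responsive genes were. In the other classes, with 0.131% of genes called in precursors, 0.0889% in newly formed oligodendrocytes, 0.349% in microglia, 0.123% in mural cells and 0.0623% in neurons, no responsive gene was called. There, 3 of 6, 0 of 2, 3 of 4, 2 of 3 and 3 of 5 had an unadjusted p under 0.05, against 6.07%, 3.89%, 7.24%, 6.53% and 6.13% of all genes. The median log2 difference of the tested responsive genes was 0.73 in astrocytes, 0.82 in oligodendrocytes, 0.71 in endothelial cells, 0.48 in neurons, 0.41 in microglia, 0.39 in mural cells, 0.23 in precursors and 0.14 in newly formed oligodendrocytes. Over all genes of a class the median was -0.01 to 0.01.

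Astrocytes carried most of the calls. Hif3a had 59.7, 57.7, 42.2, 40.1, 21.7 and 56.3 CPM in males 1 to 6, and 13.4, 20.1 and 25.9 as the lowest, median and highest of the females. 5 of the 6 males lay above every female, and male 5 lay within their range. The means were 46.3 ± 14.6 and 20.2 ± 3.91 CPM, a log2 difference of 1.17 ± 0.19 (SE; edgeR adjusted p = 0.000167). Tsc22d3 had 437, 491, 454, 379, 196 and 549.6 CPM in males 1 to 6, against 155 to 236 with a median of 192 in females. Again male 5 alone fell among the females. Its log2 difference was 1.07 ± 0.20 (edgeR adjusted p = 0.0276). Klf9 (424 ± 72.1 against 318 ± 45.2 CPM) and Klf15 (146 ± 23.2 against 111 ± 6.58 CPM) differed less, by 0.38 ± 0.10 and 0.37 ± 0.10 on the log2 scale (edgeR adjusted p = 0.0375 and 0.0373), each with 5 males above every female. The summed level of the 9 astrocyte markers was 27007 CPM in males and 26957 in females. Zbtb16 was 42.6 ± 20.6 against 17.7 ± 5.03 CPM, a difference of 1.17 ± 0.34 that was not called (edgeR adjusted p = 0.156), and Sult1a1 was 99.3 ± 38.8 against 84.2 ± 14.6 CPM.

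In endothelial cells Tsc22d3 had 630, 828, 775, 674, 575 and 687 CPM in males 1 to 6, and 334, 451 and 485 as the lowest, median and highest of the females. It was the only one of the 80 combinations in which every male lay above every female (log2 difference 0.71 ± 0.11, edgeR adjusted p = 1.75e-05). The 10 endothelial markers of that class, summed, were also higher in every male (30645 to 34362 CPM) than in every female (27520 to 30488 CPM). Blood markers there ranged from 0 to 26959 CPM in males and 184 to 63606 in females. The part of either in the result was not tested. In oligodendrocytes Klf15 had 27.8, 42.7 and 49.1 CPM as the lowest, median and highest male and 16.6, 20.7 and 35.4 as those of the females (log2 difference 0.76 ± 0.17, edgeR adjusted p = 0.0277). Here too 5 males lay above every female. The summed oligodendrocyte markers overlapped, at 122194 to 130684 CPM in males and 116381 to 125235 in females.

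**Figure D2:**
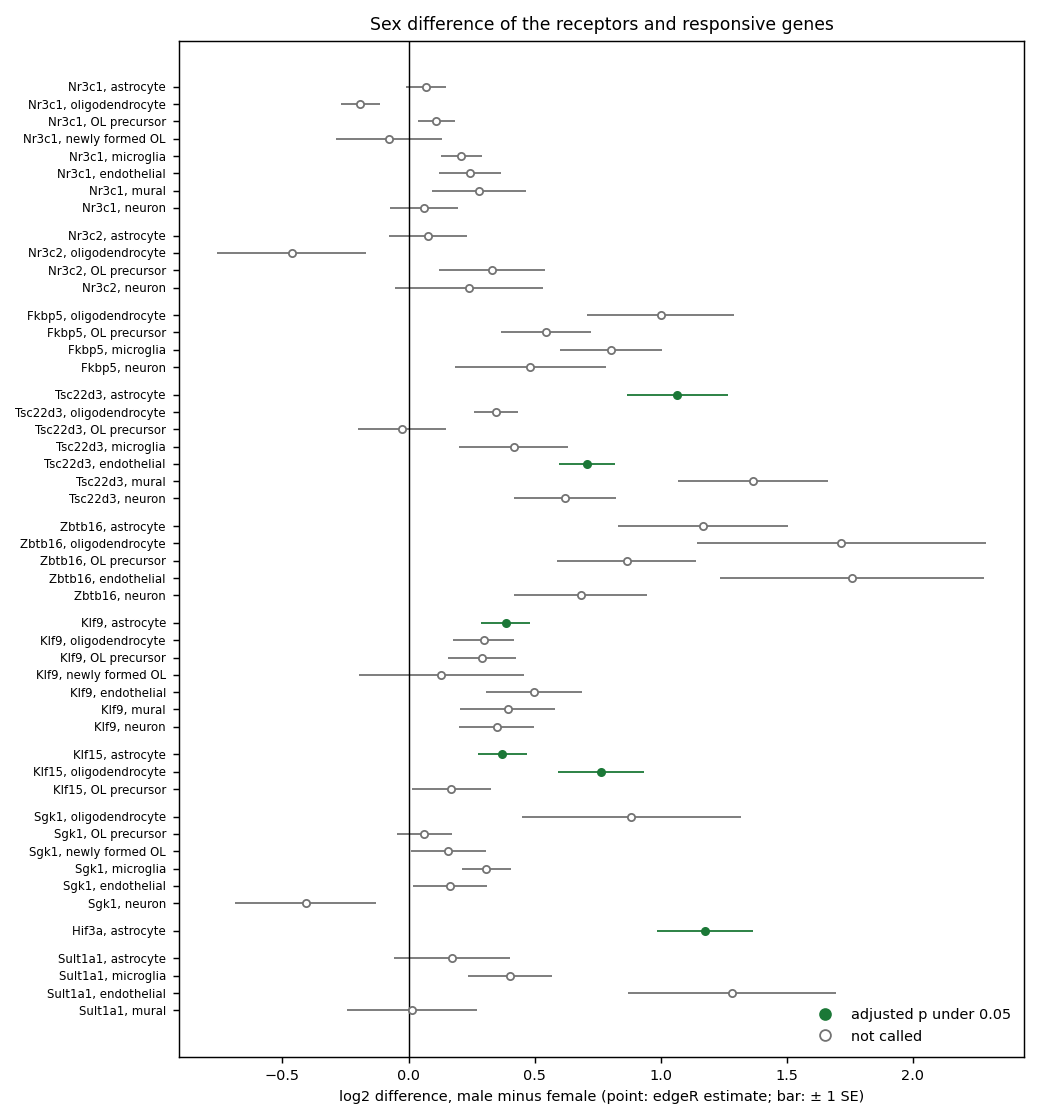
Log2 difference, male minus female, of each tested gene in each class, with its SE as a bar and calls filled. The differences of responsive genes lie to the right of 0 in 35 of 37 cases, while the 12 receptor differences lie on both sides and none is called.

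**Figure D3:**
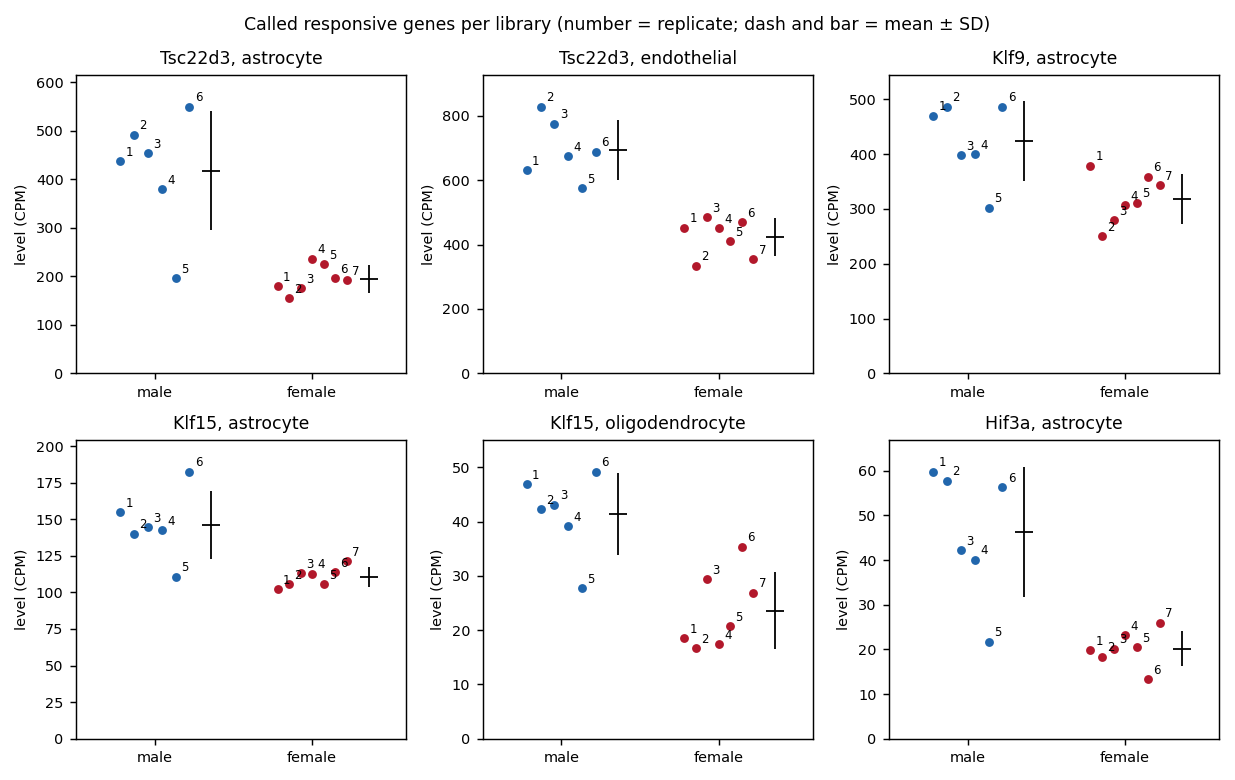
CPM in each of the 13 libraries for the 6 called combinations, males and females apart. Male 5 lies within the range of the females in 5 of the 6 panels, and in endothelial Tsc22d3 the males lie at 575 to 828 CPM and the females at 334 to 485.

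Several differences were as large without being called. In mural cells Tsc22d3 had 39.2, 196 and 366 CPM as the lowest, median and highest male against 65.0, 87.1 and 116 in females, a log2 difference of 1.37 ± 0.30 (edgeR adjusted p = 0.0512). In microglia Fkbp5 had 130, 155, 124, 100.2, 57.8 and 148 CPM in males 1 to 6, against 30.3 to 94.1 with a median of 66.5 in females. 5 males lay above every female, and the log2 difference was 0.80 ± 0.20 (edgeR adjusted p = 0.146). Zbtb16 differed by 1.76 ± 0.52 in endothelial cells and 1.72 ± 0.57 in oligodendrocytes (edgeR adjusted p = 0.186 and 0.412). Its oligodendrocyte males were spread from 8.67 to 142 CPM, and the females from 14.3 to 37.7. Endothelial Sult1a1 differed by 1.28 ± 0.41 (edgeR adjusted p = 0.233). Oligodendrocyte Sgk1 ran from 212 to 1878 CPM in males and from 245 to 792 in females, a log2 difference of 0.88 ± 0.43 (edgeR adjusted p = 0.701).

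The receptors themselves were not called in any class. Of 12 tests 2 had an unadjusted p under 0.05, and edgeR, DESeq2 and limma voom each called 0. Microglial Nr3c1 was 309 ± 25.6 CPM in males and 265 ± 10.99 in females (log2 difference 0.21 ± 0.08, edgeR adjusted p = 0.490), with 5 males above every female. Oligodendrocyte Nr3c1 went the other way, at 328 ± 29.7 and 375 ± 36.2 CPM (-0.19 ± 0.08, edgeR adjusted p = 0.448). Astrocyte Nr3c1 differed by 0.07 ± 0.08 and Nr3c2 by 0.08 ± 0.16.

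How firmly the calls stand depends on single libraries. Hif3a in astrocytes and Tsc22d3 in endothelial cells were called when any of the 13 libraries was left out, with edgeR adjusted p up to 0.00162 and 0.000353. The other 4 were lost on leaving out some libraries. Astrocyte Tsc22d3 was kept only without female 1, female 4, female 5 or male 5 (highest adjusted p 0.0758), astrocyte Klf9 only without female 1, female 6 or male 5 (0.131), astrocyte Klf15 only without female 1, male 3 or male 5 (0.211), and oligodendrocyte Klf15 only without female 3, female 6, female 7, male 4 or male 5 (0.110). The count of calls was 2 without male 1, male 2 or male 6, was 3 without male 3, female 2, female 3, female 4, female 5 or female 7, and was 13 without male 5. The 7 gained without male 5 were Zbtb16 in astrocytes (adjusted p = 0.000348), Klf9 in endothelial cells (0.00392), Fkbp5 in microglia (3.31e-05), Tsc22d3 in mural cells (1.43e-05), and Fkbp5 (0.0115), Klf9 (0.0401) and Tsc22d3 (0.0074) in oligodendrocytes. The gain was not limited to the members. Of the gene lists described below, clock genes rose from 13 to 23 calls and other glucocorticoid-responsive genes from 4 to 10. Receptor chaperones stayed at 2, immediate early genes at 1 and coregulators at 0. The share of all genes called without male 5 is not given here.

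Whether the sex difference itself differed between classes was asked after the differences per class had been seen, so the answer is not independent of them. It was tested for the members with terms for class by sex, each class against astrocytes, in 1 edgeR fit with the library as a block. Of 70 member terms 1 was called: the Tsc22d3 difference was smaller in oligodendrocyte precursors than in astrocytes (-1.08 ± 0.22 on the log2 scale, edgeR adjusted p = 0.0459). In that comparison 0.00758% of genes were called. The shares in the other comparisons with astrocytes were 0.00758% for oligodendrocytes, 0% for newly formed oligodendrocytes, 0.0607% for microglia, 0.0455% for endothelial cells, 0.0152% for mural cells and 0.0227% for neurons, with no member among them. The 70 terms include genes with few counts in 1 of the compared classes. Astrocytes had only 42 Fkbp5 and 65 Sgk1 UMIs, and newly formed oligodendrocytes 0 Hif3a UMIs. A term that was not called therefore does not show that the sex differences are alike. In precursors Tsc22d3 had 19.8, 28.6 and 31.0 CPM as the lowest, median and highest male and 20.1, 28.7 and 33.3 in females, which overlap throughout (log2 difference -0.03 ± 0.17). The log2 level in astrocytes minus that in precursors of the same library was 3.78 ± 0.69 in males (SD, n = 6) and 2.73 ± 0.28 in females (SD, n = 7). The call held without female 6, female 7, male 4 or male 5 and was lost without any other single library, with adjusted p up to 0.555. Fitted on these 2 classes alone it was 0.00331.

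**Figure D4:**
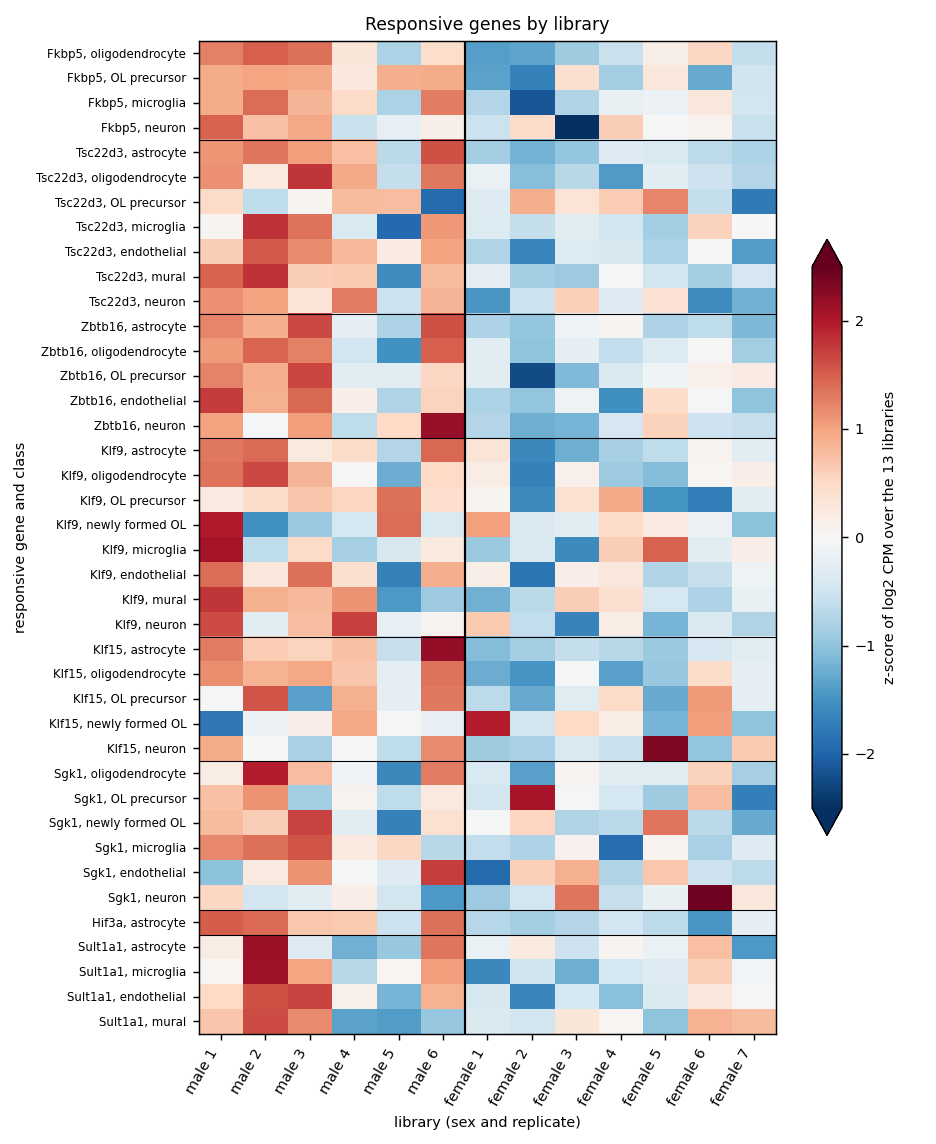
Level of each responsive gene and class with enough counts (40 rows) in each of the 13 libraries, as the log2 level standardised over libraries. Males 1, 2, 3 and 6 are high over most rows, male 4 is intermediate, and male 5 is low like the females.

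The same libraries were high for many of these genes at once. The 13 libraries were ranked for each of the 40 combinations of responsive gene and class with at least 5 UMIs in 10 libraries. Males 1, 2, 3 and 6 had mean ranks of 10.4, 10.3, 10.1 and 9.57 (13 being highest), male 4 had 7.67, and male 5 had 4.85. The females had 3.85 to 6.53. Males 1 and 3 were among the 4 highest libraries in 30 of 40 cases each, male 2 in 27 and male 6 in 26, against 12 for male 4, 4 for male 5 and 3 to 10 for the females. Without astrocytes the mean ranks of males 1, 2, 3 and 6 were 9.09 to 10.3 and that of male 5 was 5, so the order of libraries was not that of a single class. Male 5, male 3 and female 3 are the libraries from 8 weeks of age, and the part of age or depth in the position of male 5 was not tested.

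Clock genes, many of which follow the time of day, were in part also higher in males. Of 63 tests of 12 such genes over the classes, 44 differences were positive. An unadjusted p under 0.05 was found in 30, of which 26 were higher in males. Of the 63 tests 13 were called, all higher in males, where 0.0623% to 1.28% of all genes were called, depending on the class. They were Dbp, Nr1d2, Per3 and Tef in microglia, Cry1, Cry2, Dbp, Gm129 and Nr1d2 in oligodendrocytes, Per2 and Tef in astrocytes, Cry1 in precursors and Tef in endothelial cells. Microglial Tef, a transcription factor with a daily rhythm, was 121 ± 35.2 CPM in males and 49.4 ± 8.44 in females (log2 difference 1.27 ± 0.16, edgeR adjusted p = 5.39e-08). Microglial Dbp had 83.9, 96.3, 136, 104, 21.9 and 82.5 CPM in males 1 to 6 and 5.81 to 39.0 in females, and oligodendrocyte Dbp had 7.81 CPM in male 5 and 27.4 to 44.4 in the other males, against 7.93 to 16.9 in females. Male 5 was thus within the range of the females for microglial Dbp and just below it for oligodendrocyte Dbp. Male 4, intermediate for the responsive genes, was second highest for microglial Dbp and highest of all libraries for astrocyte Dbp, at 531 CPM. The library patterns of clock and responsive genes were not compared by a test. The labels give no time of dissociation. Of genes induced by dissociation, 1 of 31 tests of immediate early genes was called, Fos in astrocytes, lower in males (16.0 ± 2.70 against 27.3 ± 9.01 CPM, edgeR adjusted p = 0.0304). Of 41 tests of heat-shock genes 0 were called (6 with an unadjusted p under 0.05, and 0 by DESeq2 and by limma voom). Without male 5, 2 heat-shock tests were called. The part of these genes in the sex differences was not tested.

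The correlation between responsive genes over libraries was computed for 86 pairs within classes, on log2 CPM. The median r was 0.469 over all 13 libraries, and 70 pairs were positive. Within the 6 males the median was 0.540 with 69 positive, and within the 7 females 0.129 with 51 positive. Since the sexes stand apart in several of these genes, the values within a sex are the ones that are not shaped by that separation. By exact permutation with Benjamini-Hochberg adjustment over the 86 pairs, 0 passed within males (16 had an unadjusted p under 0.05, smallest adjusted p = 0.185) and 0 within females (3 unadjusted, smallest adjusted p = 0.205).

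Classes differed in how closely the genes moved together. In oligodendrocytes all 15 pairs were positive in both sexes, with a median r of 0.795 in males and 0.553 in females. Without the 2 libraries farthest from the median of the first gene of a pair, 13 were positive in males, with a median of 0.325, and 15 in females, with a median of 0.522. In astrocytes all 15 were positive in males, with a median of 0.775, but 8 of 15 in females, with a median of 0.0014. Without the 2 farthest libraries the astrocyte pairs of males ran from -0.625 to 0.965, with 11 positive and a median of 0.622, and 9 were positive in females. Over all 86 pairs the median without them was 0.356 in males, with 61 positive, and 0.121 in females, with 52 positive. With 2 of 6 males or 2 of 7 females removed, each r rests on few libraries. Single pairs then ran from -0.942 to 0.976 in males and from -0.897 to 0.954 in females. Endothelial cells had medians of 0.534 in males and 0.402 in females, mural cells, with only 3 pairs, 0.674 and 0.00929, and microglia 0.251 and 0.144. Without the 2 farthest libraries the medians were 0.701 and 0.167 in endothelial cells, 0.329 and -0.0891 in mural cells, and 0.274 and 0.0632 in microglia. With all libraries of a sex, 6 of 15 precursor pairs were positive in males and 7 in females (medians -0.24 and -0.0588). Of 15 neuron pairs 11 and 6 were positive (medians 0.200 and -0.081). Newly formed oligodendrocytes had only 3 pairs, 0 positive in males and 2 in females (medians -0.431 and 0.382). Over all pairs of genes with the same count minimum, the median r over the 13 libraries was 0.001 to 0.0153 in each class. Within a sex it was -0.00154 to 0.0133 in males and 0.000703 to 0.0192 in females, depending on the class. Differences between classes or sexes in these medians were not tested.

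The closest relation in both sexes, chosen after its values were seen, was that of Zbtb16 and Sgk1 in oligodendrocytes. Zbtb16 had 98.6, 142, 117, 24.05, 8.67 and 139.7 CPM in males 1 to 6, and Sgk1 had 635, 1878, 889, 532, 212 and 1207 CPM in the same libraries, so that male 5 was lowest and male 2 highest in both. Within males r was 0.913 (exact permutation p = 0.00278, adjusted 0.185) and rho 0.943 (exact p = 0.0167, adjusted 0.456). Within females r was 0.929 (exact permutation p = 0.00238, adjusted 0.205) and rho 0.857 (exact p = 0.0238, adjusted 0.896). Without the 2 libraries farthest from the median of Zbtb16, r was 0.908 in males and 0.783 in females, on so few libraries that it is only a description. In astrocytes Tsc22d3 and Hif3a had r = 0.936 in males (exact permutation p = 0.0236, adjusted 0.185) and rho = 0.771 (exact p = 0.103, adjusted 0.465), with r = 0.730 without the 2 farthest. In females the same pair had r = 0.134 (exact permutation p = 0.794, adjusted 0.975) and rho = 0.464 (exact p = 0.302, adjusted 0.951).

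**Figure D5:**
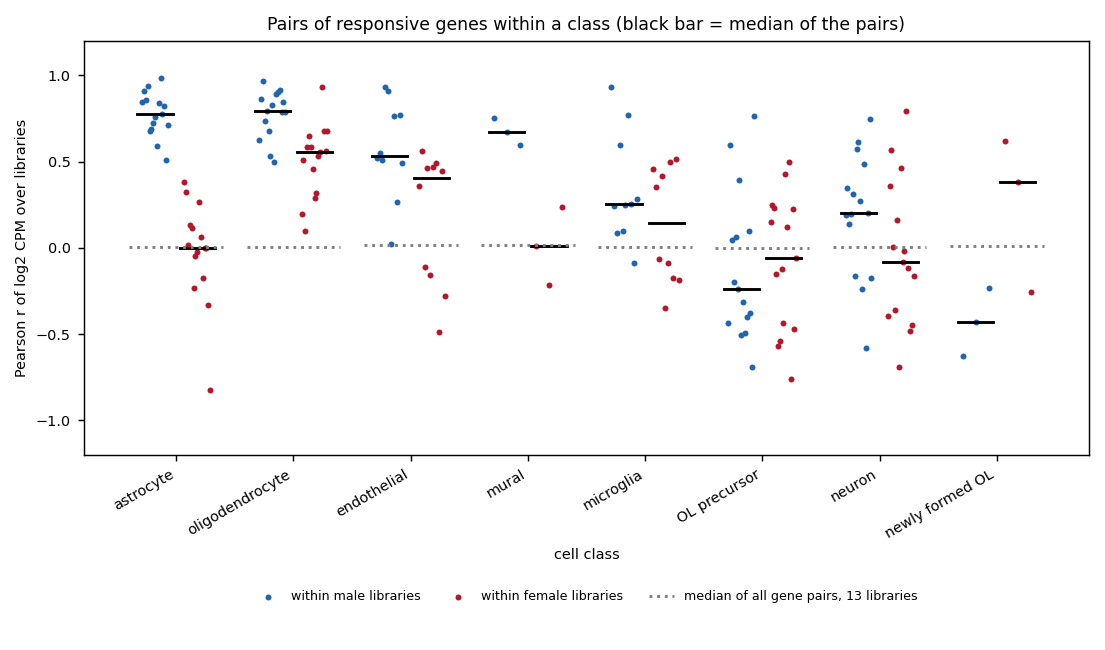
Pearson's r of every pair of responsive genes in each class, males and females as separate points, with the medians marked. Oligodendrocyte pairs lie above 0 in both sexes, astrocyte pairs above 0 for all 15 in males and 8 of 15 in females, and precursor pairs on both sides of 0.

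A fit over all genes asked which of them followed Fkbp5, the standard transcript readout of receptor activity, from library to library beyond the sex difference. With Fkbp5 of the same class as the measure, 0 of 25 members were called in the 4 classes with enough Fkbp5 counts (6 with an unadjusted p under 0.05, as had 3.25% to 6.90% of all genes, and 0 by DESeq2 and by limma voom). The share of all genes called was 0.0782% in oligodendrocytes and 0% in precursors, microglia and neurons. The 6 were positive: 1.24 ± 0.44 for Zbtb16, 0.97 ± 0.32 for Sgk1, 0.37 ± 0.15 for Klf15 and 0.27 ± 0.09 for Klf9 in oligodendrocytes, and 0.84 ± 0.23 for Tsc22d3 and 0.36 ± 0.14 for Sult1a1 in microglia, in log2 units per log2 unit of Fkbp5 (edgeR adjusted p = 0.345 to 0.719). Genes outside the set were called in oligodendrocytes. Adipor2, an adiponectin receptor (0.53 ± 0.09, adjusted p = 0.00331), Tef (0.55 ± 0.10, 0.00506) and Erlin2 (0.52 ± 0.10, 0.0171) rose with Fkbp5. Calr and Pdia3, folding proteins of the endoplasmic reticulum, and the histone gene Hist1h4h fell, with slopes of -0.49 ± 0.08, -0.36 ± 0.07 and -0.75 ± 0.16 (adjusted p = 0.00331, 0.0296 and 0.0497).

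With Fkbp5 of the other classes as the measure, the counts on both sides come from different cells. 1 of 50 members was called, Tsc22d3 in astrocytes, with a slope of 0.83 ± 0.17 (edgeR adjusted p = 0.0408), and 16 had an unadjusted p under 0.05, as had 3.42% to 6.77% of all genes. The share of all genes called was 0.058% in astrocytes, 0.0112% in oligodendrocytes, and 0% in each of the other 6 classes. In the same astrocyte fit Mertk, a receptor for the uptake of dying cells (0.64 ± 0.12, adjusted p = 0.0101), Usp2 (0.82 ± 0.16, 0.0304) and Etnppl (0.67 ± 0.14, 0.0408) rose and Rasa2 fell (-0.60 ± 0.13, 0.0408). Tef rose in oligodendrocytes (1.10 ± 0.21, 0.0492). The Tsc22d3 slope rested on few libraries: it was 0.44 without male 5 (adjusted p = 0.99997). Among the fits that left out 1 library, it was called without female 6, male 4 or male 6. The fits without female 3 and without female 4 also called 1 member each, and the remaining fits called 0.

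Other genes of the pathway were read from lists, as tests over genes and classes, and the share of all genes called in these fits was 0.0623% to 1.28%, depending on the class. Of 85 tests of 18 other glucocorticoid-responsive genes, 4 were called, all higher in males. These were Per1, a clock gene induced directly by glucocorticoids, in oligodendrocytes (31.9 ± 7.09 against 14.2 ± 3.88 CPM, log2 difference 1.13 ± 0.19, edgeR adjusted p = 0.000974) and in endothelial cells (1.05 ± 0.29, adjusted p = 0.0462), Tgm2, a transglutaminase, in microglia (88.6 ± 28.5 against 49.0 ± 9.62 CPM, 0.88 ± 0.16, adjusted p = 0.000628), and Mfsd2a, a lipid transporter of the blood-brain barrier, in endothelial cells (493 ± 61.5 against 329 ± 37.9 CPM, 0.60 ± 0.12, adjusted p = 0.00123). Of these 85 tests 48 were positive. Receptor chaperones gave 2 calls of 80, both lower in males: Hsp90aa1, which holds the receptor ready for hormone, in astrocytes (189 ± 22.7 against 240.3 ± 36.9 CPM, -0.37 ± 0.09, edgeR adjusted p = 0.0233) and Bag1 in endothelial cells (-0.53 ± 0.14, adjusted p = 0.0307). Steroid conversion and export gave 0 of 8 (2 unadjusted) and coregulators 0 of 63 (5 unadjusted), and DESeq2 and limma voom also gave 0 for both. Among class markers, Ly6c1 and the oligodendrocyte gene Mal in endothelial cells and the neuronal Meg3 in microglia were higher in males (log2 differences of 0.31, 0.51 and 0.58), and their part in the other differences was not tested.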

How the data were processed

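Single-cell RNA was measured in 6 male and 7 female medial amygdala libraries. The deposited table holds raw UMI counts per gene and cell, with sex, library and the authors' cell class in each cell's name, per the file headers. Per the submitters' processing notes the tools were bcl2fastq 2.17.1.14 and STAR 2.5.0a and the build mm10; the collapsing of UMIs and choice of cells are steps not given in the sources used here. Cells with at least 500 genes were kept, doublets found with Scrublet (scanpy 1.11.5, Python 3.11.15) removed, and counts summed per library and class (0 columns belonged to no library).

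Each class was fitted in edgeR 4.0.16 (R 4.3.3) with TMM scaling, filterByExpr and the two-sided quasi-likelihood F test. Benjamini-Hochberg adjustment ran over the genes tested in the class, with a threshold of 0.05. Fold changes are TMM-scaled and printed CPM are not. Slopes on Fkbp5 and correlations used log2 CPM with a prior count of 2, of genes with at least 5 UMIs in at least 10 libraries, and slopes had a term for sex. Correlations used 100000 permutations over all libraries and exact enumeration within a sex. Alternatives were DESeq2 1.42.0, limma 3.58.1 (voom) and those in the closing section. The scripts were tested on simulated data. Depth, 3718151 to 7874074 UMIs per library, limits low genes: 49 of the 80 combinations of gene and class passed the count filter. The upper limit given for a count of 0 covers counting error only, while SDs and SEs include the spread between libraries. Sequences are from RefSeq (GRCm38.p6) and gene positions from GENCODE.

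The members and lists were chosen with earlier results of these data known. Named genes were the 10 members, called list genes, in each slope fit up to 5 rising and 3 falling called genes of at least 20 CPM, and the 3 genes most like each member. The class-by-sex terms were chosen after seeing the data.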

Additional observations from a re-analysis of the deposited data

Results flagged for a closer look

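Of 104 groups of libraries (each member, within a sex, in the classes where it had enough UMIs) checked for a library far from the rest, 3 had one, against the roughly 1 in 20 that chance gives. Neuronal Nr3c1 was 212.4 CPM in male 1 and at most 128.5 in the other males. Fkbp5 in oligodendrocyte precursors was 26.0 CPM in male 4, below 30.6 or more in the others. Neuronal Klf15 was 16.7 CPM in female 5 and at most 9.93 in the other females.

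The sex difference of Tsc22d3 differed between classes: in oligodendrocyte precursors minus astrocytes it was -1.08 on the log2 scale (edgeR adjusted p = 0.0459). This term was chosen after the data were seen. The call was lost on leaving out any single library other than female 6, female 7, male 4 or male 5 (edgeR adjusted p up to 0.555).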

How the results depend on the processing

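The count of member differences between the sexes, 6, moved to 3 with limma voom and to 13 without the filter on low counts. It was 6 to 8 with RLE scaling, DESeq2, age as a term, all deposited cells or doublets kept, and 2 to 13 on leaving out 1 library. The count of slopes on Fkbp5 of the same class, 0, became 2 with Sgk1 and 2 with Tsc22d3 as the measure and 4 with no term for sex, and stayed 0 on leaving out 1 library. The count of slopes on Fkbp5 of the other classes, 1, became 0 with RLE scaling, age as a term, depth as a term, doublets kept, Sgk1 as the measure or limma voom, 6 without the filter on low counts and 15 with no term for sex, and was 0 to 1 on leaving out 1 library. The median r of 0.469 was 0.396 to 0.531 on leaving out 1 library, 0.376 on residuals after sex and 0.592 with a minimum of 20 UMIs. The share of all genes called under these settings is not given here, so the changed counts cannot be read as particular to the members. The causes of these changes were not tested. Male and female libraries share numbers. With the replicate number as a block, the 3 counts were 7, 0 and 1 and the median r 0.478; deviations of same-numbered libraries correlated at -0.281 to 0.191 and 0 of 6 males correlated best with the female of their number, so the numbers were not read as pairs. With each result counted once for every alternative setting, 2769 kept their side of the threshold, 56 newly passed it, 69 no longer passed it and none reversed. The 2769 include results called in neither fit, so they do not measure how firmly a call stands. In newly formed oligodendrocytes and mural cells few UMIs limit what can be tested.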
